A study of Mus musculus with 35 samples.

Results

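The Na,K-ATPase, or sodium pump, moves sodium out of animal cells and potassium into them at the cost of ATP. The levels of 4 of its subunit genes were measured across mouse tissues here: *Atp1a4*, which encodes the alpha 4 catalytic subunit, and *Atp1b1*, *Atp1b2* and *Atp1b3*, which encode the beta 1, beta 2 and beta 3 subunits. They were taken by symbol from a list of Na,K-ATPase genes, and were 4 of the 55356 genes in the count table. Total RNA of adult C57BL/6J mice had been sequenced in 29 RNA-seq libraries. Females and males each gave brain, cerebellum, heart and colon, and the gonads were ovary and testis, which makes 10 groups. A group had 3 libraries, and male heart had 2. No group carried a treatment or a genetic change. The labels call the tissue named brain only that, beside a separate cerebellum. The alternative transcripts come from Iso-seq, which reads full-length cDNA molecules end to end, for which RNA came from the gonads and, pooled by sex, from the somatic tissues. The deposited Iso-seq models carry no tissue of their own.

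Each pump pairs a catalytic alpha subunit, which binds ATP and the ions, with a glycosylated beta subunit that is needed to fold the pump and carry it to the plasma membrane. The alpha 4 subunit is known from male germ cells and sperm, where it is required for sperm motility. Of the beta subunits, beta 1 is the widespread form, beta 2 was also described as an adhesion molecule on glia, and beta 3 is found in several tissues including testis.

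The libraries held 11742417 to 36194255 counted reads (median 24403774), with the colon libraries among the shallowest. The tissue labels were checked with marker genes, as the FPKM (counted reads scaled by exon length in kilobases and by library total in units of 1e+06 reads) summed over each list. Cardiomyocyte markers summed to 12549.9 to 35065 FPKM in the heart libraries and to at most 11.3 in any other tissue. Spermatid markers summed to 8398 to 9344 FPKM in testis and to at most 9.74 elsewhere, cerebellar granule cell markers to 89.9 to 169 in cerebellum and to at most 8.90 elsewhere, and colon epithelium markers to 909.8 to 1895 in colon and to at most 84.4 elsewhere. Ovary markers (oocyte and granulosa cell genes) summed to 40.02 to 78.6 FPKM in ovary and to at most 1.43 elsewhere. Neuronal markers summed to 898 to 1299 FPKM in brain and 459 to 801 in cerebellum. Choroid plexus markers were uneven, from 19.8 to 1561 FPKM among the brain libraries and from 1024 to 3886 among those of cerebellum. Within their tissues, 4 libraries stood apart. Female heart replicate 3 held the lowest sum of cardiomyocyte markers and the highest of leukocyte markers in heart (40.5 FPKM, others 11.1 to 13.7). Its astrocyte list was also highest in heart (23.5 FPKM against a median of 1.93), through *Slc1a3* at 22.5 FPKM, while *Gfap* was at most 0.219 in heart. Female gonad replicate 1 held the lowest sums of ovary markers and smooth muscle markers (939.6 FPKM against 1918 and 1987) and the highest of the colon epithelium list in ovary, of which *Epcam* was nearly all. Female colon replicate 1 was the shallowest library and held the highest sum of spermatid markers outside testis. Male colon replicate 1 held the lowest sum of epithelial markers in colon (909.8 FPKM, others 1349 to 1895), the highest of smooth muscle (6329, others 2612 to 4291) and the highest of leukocytes (55.2, others 18.3 to 28.2). In RNA from whole tissues, fewer cells of a type and less RNA per cell cannot be told apart.

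All 4 genes lie on the minus strand of mouse genome GRCm38. *Atp1a4* (ENSMUSG00000007107) spans chr1:172223509-172258455 and *Atp1b1* (ENSMUSG00000026576) spans chr1:164437109-164458004. *Atp1b2* (ENSMUSG00000041329) spans chr11:69599728-69605964 and *Atp1b3* (ENSMUSG00000032412) spans chr9:96332665-96364386. Of *Atp1b1*, 186 exon bases lie opposite exons of *Nme7* on the other strand, and the other 3 genes share no exon base with another gene. The libraries were strand specific, but whether the counting used strand is not given in the sources used here, so reads from these bases may count for either gene. On the 3′ side, the nearest gene to *Atp1a4* is *Casq1*, 3641 bases away, and the nearest to *Atp1b3* is *Tfdp2*, 9043 bases away. *Shbg* lies 8840 bases from the 5′ end of *Atp1b2*.

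The promoters are shown because the genes differ in the tissues where they were highest, as the levels below give. RefSeq windows (GRCm38.p6) of 280 bases, from 250 bases before the annotated start through the first 30 bases of the transcript, are printed for these 3 genes, 5′ to 3′ on the minus strand. *Atp1b3* has a second annotated start, at 96363715, which neither Iso-seq model used. Capitals mark matches, on either strand, to the GC box GGGCGG, the CCAAT box, the TATA box TATAAA, its variant TATATA, which can share bases with it, and the core TGACG of a cAMP response element.
Atp1a4, chr1:172258395-172258674: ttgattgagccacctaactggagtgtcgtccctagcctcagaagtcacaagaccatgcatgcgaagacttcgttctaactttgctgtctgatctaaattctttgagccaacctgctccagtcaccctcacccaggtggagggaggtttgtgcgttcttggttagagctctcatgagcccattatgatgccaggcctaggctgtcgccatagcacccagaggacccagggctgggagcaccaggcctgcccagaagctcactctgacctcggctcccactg
Atp1b1, chr1:164458326-164458605: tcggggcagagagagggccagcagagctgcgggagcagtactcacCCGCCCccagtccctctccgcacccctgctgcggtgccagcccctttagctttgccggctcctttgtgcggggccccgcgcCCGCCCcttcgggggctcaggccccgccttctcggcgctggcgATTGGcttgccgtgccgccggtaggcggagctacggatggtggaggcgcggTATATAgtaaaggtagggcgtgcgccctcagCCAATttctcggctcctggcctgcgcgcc
Atp1b3, chr9:96364402-96364681: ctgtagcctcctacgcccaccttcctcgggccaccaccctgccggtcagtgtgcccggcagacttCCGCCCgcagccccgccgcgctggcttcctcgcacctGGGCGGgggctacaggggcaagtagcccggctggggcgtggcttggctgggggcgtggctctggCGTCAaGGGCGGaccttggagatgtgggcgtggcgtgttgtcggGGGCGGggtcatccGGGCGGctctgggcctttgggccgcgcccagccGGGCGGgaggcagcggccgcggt
The *Atp1a4* window held none of the 5 motifs. It held 6 CpG dinucleotides, equal to the median of all 32851 windows in the table, and was 55.4% G and C. The *Atp1b1* window held 27 CpGs and was 70.4% G and C. It had a GC box at 2 places, CCAAT at 2 places, 1 of them from base 2 of the transcript, and TATATA 30 bases before the annotated start. The nearest Iso-seq models of *Atp1b1* began 351 to 354 bases after that start. The *Atp1b3* window held 29 CpGs and was 75% G and C, with a GC box at 6 places and TGACG once. Of all windows, 87.4% held fewer CpGs than that of *Atp1b1* and 89.7% fewer than that of *Atp1b3*. A GC box was found in 34.7% of all windows, CCAAT in 36.1%, TATAAA in 13.1%, TATATA in 5.55% and TGACG in 19.9%. These matches describe letters only.

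Iso-seq gave the 4 genes very different numbers of transcript models. *Atp1a4* had 25, *Atp1b2* 19, *Atp1b1* 10 and *Atp1b3* 2. A model was compared with the GENCODE transcripts of its gene by its chain of introns. For *Atp1a4*, 2 models matched a whole GENCODE chain, 10 matched part of one and 13 held at least 1 intron that no GENCODE transcript has. Only 3 of the 25 held a whole annotated coding region. The 13 models whose first exon lay near the annotated start began between 31 bases before and 76 bases after it. The other 12 began further downstream, inside the gene. Of all 25 models, 24 ended between 172223509 and 172223517. Whether the inner starts are starts of transcription or come from incomplete cDNA was not tested. For *Atp1b1*, 4 models matched a whole chain, 4 part of one, and 2 were single exons. The 4 models that began nearest to the RefSeq start began 351 to 354 bases after it. Of the 10 models, 8 ended at 3 places, near 164437109, at 164437816 and near 164438049, each with the poly(A) signal AATAAA starting 19 to 23 bases before the end. Another 2 models ended far upstream, at 164450587, and held no whole coding region. For *Atp1b2*, 3 models matched a whole chain and 3 part of one. Of the other 13, 12 held an intron absent from GENCODE and 1 was a single exon, and 10 of all 19 models held a whole coding region. Some of these introns were short gaps within an exon of another model, such as that between bases 4593 and 4618 from the locus start. Whether they were spliced was not tested. Both *Atp1b3* models matched a whole chain and held the coding region. They differed in their ends, at 96332665 and 96333045, with AATAAA starting 36 and 20 bases before the end. The map of these models shows the *Atp1a4* models that begin inside the gene and the upstream ends of *Atp1b1*.

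**Figure D1:**
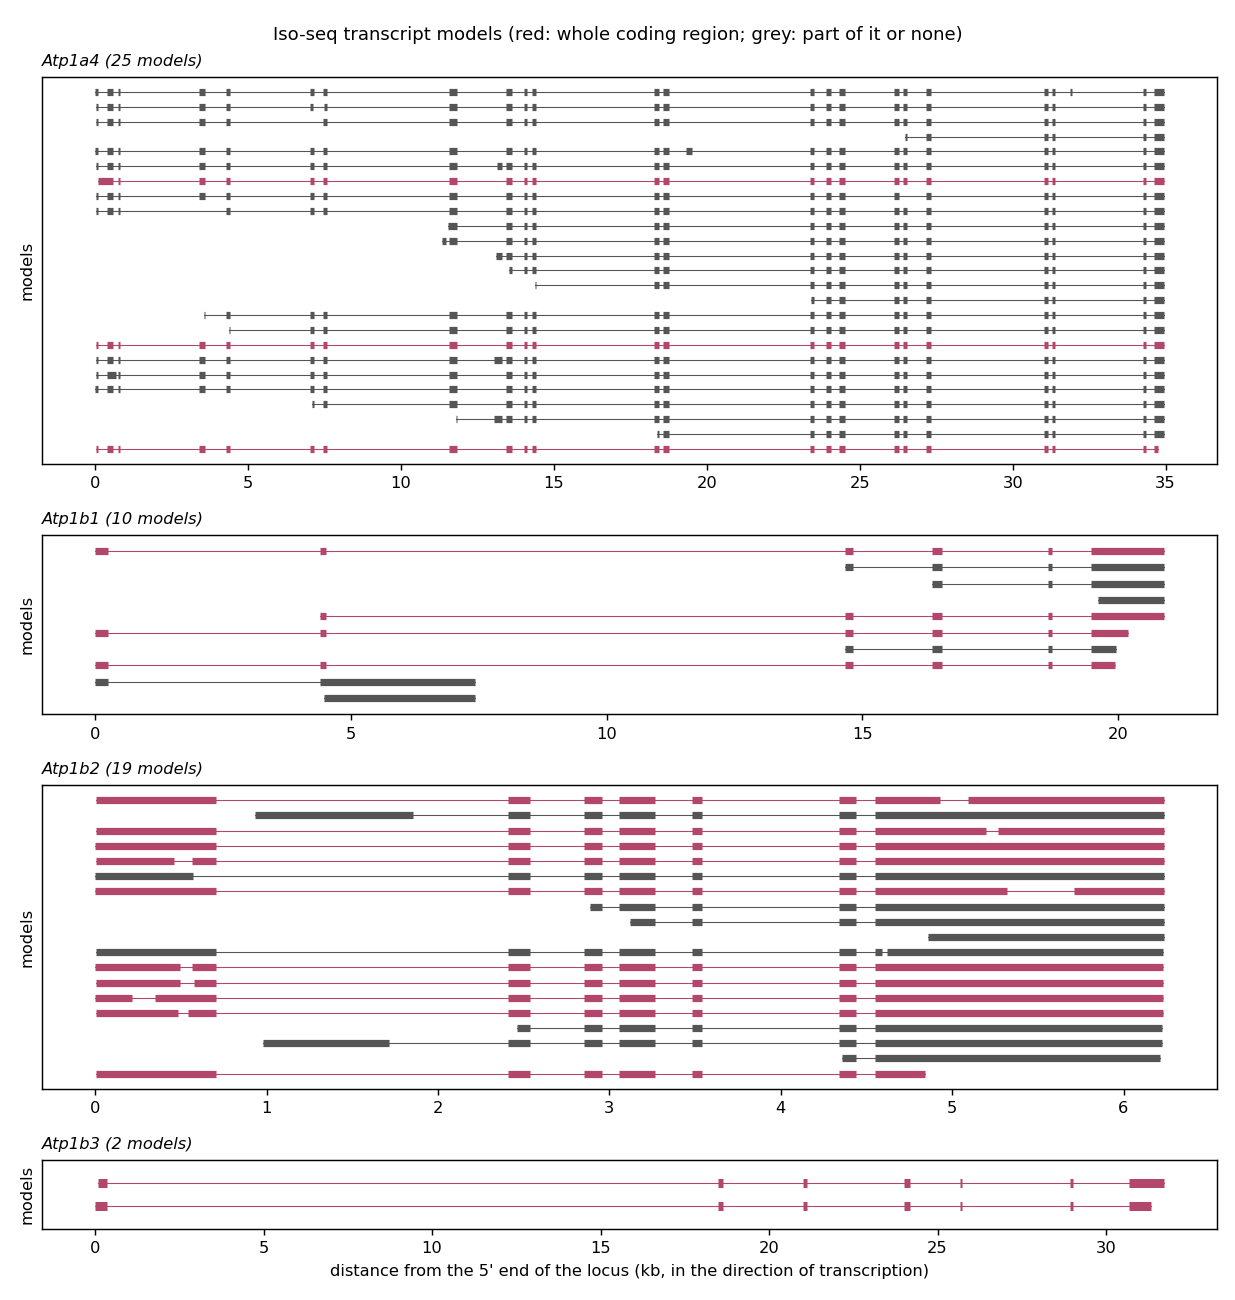
Iso-seq transcript models of the 4 genes, drawn by distance in kb from the 5′ end of each locus in the direction of transcription, with exons as thick bars and introns as thin lines. Red models hold a whole annotated coding region and grey models do not, which leaves 3 red models of 25 for *Atp1a4* and 2 of 2 for *Atp1b3*.

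*Atp1a4* was a testis gene in these libraries. The 3 testis libraries had 24474, 22483 and 23990 reads on it (replicates 1, 2 and 3), or 189.6, 160.3 and 172 FPKM (mean 174 ± 14.8 SD, n = 3). The other 26 libraries had 0 to 16 reads each and at most 0.300 FPKM, so the groups were far apart. Female brain libraries had 6, 8 and 2 reads and male brain libraries 8, 1 and 4. Cerebellum had 1, 0 and 1 in females and 6, 3 and 3 in males, heart 1, 1 and 0 in females and 1 and 1 in males, and ovary 1, 2 and 1. Colon had 16, 1 and 3 in females and 2, 0 and 3 in males. The highest of these, female colon replicate 1, also held the highest sum of spermatid markers outside testis, 9.74 FPKM. The next highest spermatid sums were 6.51 and 5.15 FPKM, in female colon replicate 3 and male colon replicate 3, where *Atp1a4* had 3 reads each. Of the spermatid markers, *Acrv1* was at 0 in all 6 colon libraries. The part of these markers in the *Atp1a4* reads was not tested.

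Summed over libraries, *Atp1a4* reads as a share of all counted reads were 2977 times higher in testis than in colon (95% exact interval 2017 to 4601), 4554 times higher than in brain (3171 to 6801) and 8102 times higher than in cerebellum (4828 to 14820). Against ovary, with 4 reads in all, the ratio was 13972 (5457 to 51281), and against heart, also with 4 reads, it was 22352 (8729.7 to 82040). Female colon replicate 1 gave 16 of the 25 colon reads. Without it the ratio of testis to colon was 7244 (3816 to 15843), on 9 reads in 5 libraries. These intervals cover counting error only, and reads are not independent molecules. A count of 0 in one library allows up to 3 reads.

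Differences between tissues were tested by quasi-likelihood in edgeR, with a single model of all 29 libraries and p-values adjusted by Benjamini-Hochberg over the 29911 genes that passed the filter on low counts. All 4 genes passed that filter, *Atp1a4* through its testis reads alone. *Atp1a4* is therefore given as the read counts and ratios above, with no test, and the tests are those of the 3 beta genes.

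Large shares of all genes differ between such tissues, and the calls of the beta genes stand beside these. Of all genes tested, 26.1% were called between brain and cerebellum, 58.8% between brain and heart, 68.3% between brain and colon, 56.8% between brain and ovary and 71.5% between brain and testis. The share was 57.4% for cerebellum against heart, 66.1% against colon, 53.5% against ovary and 71.0% against testis. It was 53.9% for heart against colon, 44.0% against ovary and 67.5% against testis, 48.0% for colon against ovary, 71.9% for colon against testis and 64.3% for ovary against testis. For testis against the equal-weight mean of the other 5 tissues it was 67.1%. Over the 15 pairs, 43 of the 45 tests of the 3 beta genes were called. With female heart replicate 3, female gonad replicate 1 and female colon replicate 1 left out together, 14 pairs were called for *Atp1b1*, 15 for *Atp1b2* and 14 for *Atp1b3*, the same numbers as with all libraries. The counts were again 14, 15 and 14 with male colon replicate 1 left out as well.

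FPKM scales each library to its total count, while the test scales by TMM, which uses the bulk of the genes. Relative to TMM, scaling by total counts moved log2 differences by between -0.87 (heart minus ovary) and 0.64 (ovary minus testis), and testis minus the others by -0.26. RLE factors moved them by between -0.24 (brain minus colon) and 0.19 (colon minus ovary). For *Atp1b3* this turned the order of ovary against brain and against heart, and both scales are given there. For *Atp1a4* it turned the order of heart and ovary, each with 4 reads in all.

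**Figure D2:**
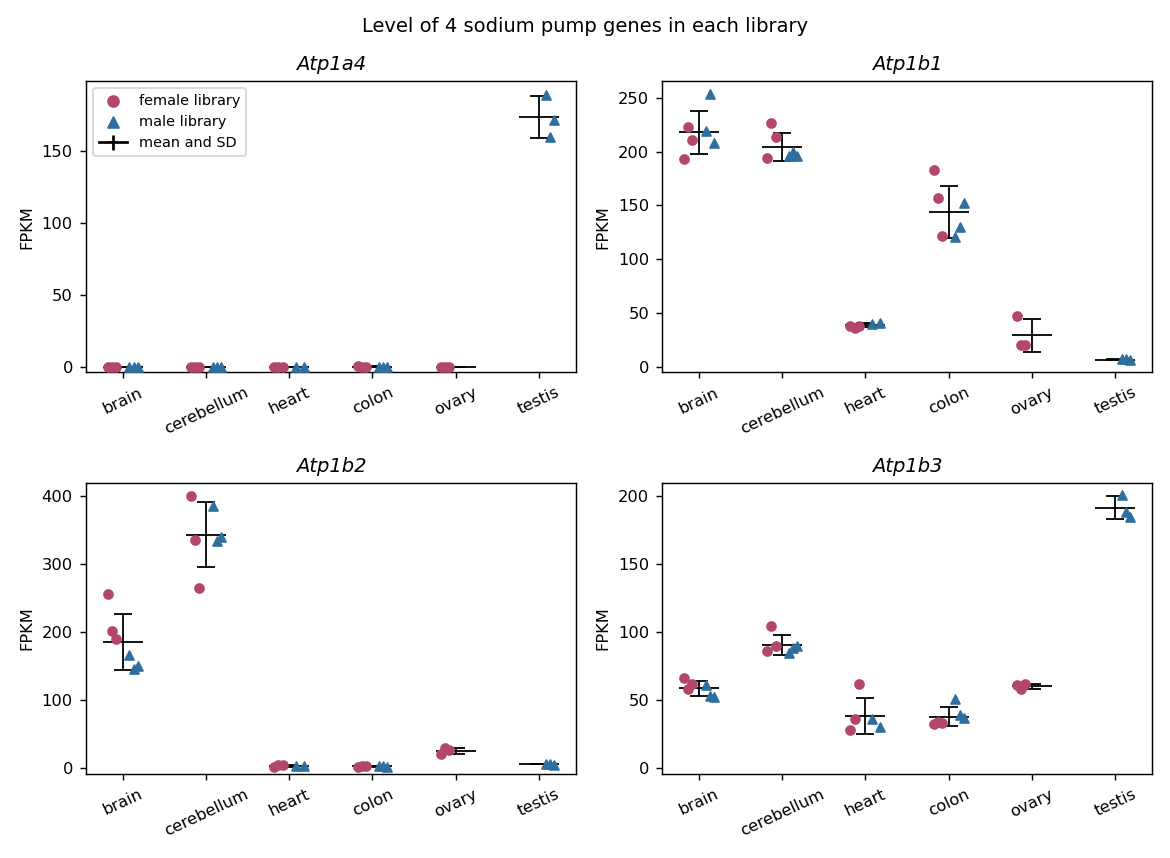
FPKM of the 4 genes in each of the 29 libraries by tissue (linear axes, circles for female and triangles for male libraries), with the mean and SD of each tissue in black. *Atp1a4* lies above 160 FPKM in the 3 testis libraries and at or below 0.300 in the rest, *Atp1b1* and *Atp1b2* are highest in brain or cerebellum and *Atp1b3* in testis.

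*Atp1b1* was highest in brain and cerebellum and lowest in testis. The 6 brain libraries ranged from 193 to 253 FPKM around a median of 215, and the 6 cerebellum libraries from 194 to 227 around 198. The 6 colon libraries ranged from 120.5 to 183 around 141. The 5 heart libraries had 38.0, 36.2 and 38.0 FPKM in females and 39.8 and 40.8 in males. They were this close by total counts only, since with TMM, the scale of the tests, they had 62.9, 50.9 and 34.0 in females and 57.0 and 59.8 in males, the lowest being female heart replicate 3. The ovary libraries had 46.8, 20.2 and 20.3 FPKM, of which the high one was female gonad replicate 1, where the colon epithelium list was also highest (84.4 FPKM against 28.8 and 27.6), with 80.8 FPKM from *Epcam*, and smooth muscle markers lowest. The part of those markers in the *Atp1b1* level was not tested. The 3 testis libraries had 6.65, 6.80 and 6.09 FPKM, below every other library.

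By edgeR, 14 of the 15 pairs of tissues differed for *Atp1b1*. Brain minus cerebellum was 0.23 ± 0.16 (log2, SE) and did not pass (adjusted p = 0.342). Cerebellum exceeded colon by 0.51 ± 0.16 (adjusted p = 0.00754), the smallest difference called, which was lost with RLE factors (0.30 ± 0.17, adjusted p = 0.115), with DESeq2 (0.30, adjusted p = 0.108) and without male gonad replicate 2 (0.35, adjusted p = 0.0718). Colon exceeded heart by 1.29 ± 0.18 (adjusted p = 7.82e-07), and heart exceeded ovary by 1.34 ± 0.22 (adjusted p = 1.41e-05). Ovary exceeded testis by 1.49 ± 0.24 (adjusted p = 5.70e-06). Without female heart replicate 3, female gonad replicate 1 and female colon replicate 1, ovary exceeded testis by 1.06 (edgeR adjusted p = 2.59e-06) and heart exceeded ovary by 1.88 (adjusted p = 9.46e-10). Testis was below the mean of the others by 3.59 ± 0.23 (log2 difference -3.59, adjusted p = 3.00e-13).

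*Atp1b2* was a brain and cerebellum gene with a lower level in ovary. Cerebellum libraries ranged from 265 to 400.2 FPKM around a median of 338, and brain libraries from 146 to 256 around 178. The brain libraries lay below all cerebellum libraries by total counts only, since with TMM they ranged from 157 to 244 and overlapped with cerebellum at 232 to 377. Ovary libraries had 20.3, 29.4 and 26.5 FPKM, with the lowest in female gonad replicate 1. Testis libraries had 6.30, 6.59 and 5.61 FPKM. Heart libraries had 2.42, 4.21 and 4.50 FPKM in females and 3.13 and 3.03 in males. Colon libraries ranged from 2.07 to 3.41 FPKM around 3.06. They overlapped with those of heart by total counts, but not with TMM, where colon ranged from 1.83 to 3.20 and heart from 4.01 to 5.91.

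All 15 pairs differed for *Atp1b2* by edgeR. Cerebellum exceeded brain by 0.78 ± 0.15 (log2, SE, adjusted p = 0.000173). Brain exceeded ovary by 3.27 ± 0.21 (adjusted p = 8.14e-13), and ovary exceeded testis by 1.41 ± 0.21 (adjusted p = 2.22e-06). Testis exceeded heart by 0.65 ± 0.19 (adjusted p = 0.00335), and heart exceeded colon by 0.77 ± 0.16 (adjusted p = 0.000206). The difference of cerebellum minus colon was 6.89 ± 0.19 (adjusted p = 4.13e-20), the widest range of the 3 beta genes. Testis minus the mean of the others was -1.90 ± 0.18 (adjusted p = 8.07e-10). Several marker sums moved with cerebellum against brain. Granule cell markers had medians of 153 FPKM in cerebellum and 2.88 in brain, choroid plexus markers 3132 and 243, and astrocyte markers 646 and 305. The astrocyte sum moved through *Slc1a3* (medians 411 and 137) and *Aqp4* (81.4 and 46.0), while *Gfap* did not follow (114 and 115). Nearly all of the choroid plexus sum in cerebellum was *Ttr* (mean 2886 FPKM). Neuronal markers were higher in brain. Their part in the difference was not tested.

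*Atp1b3* was present in every tissue and highest in testis. The 3 testis libraries had 201, 189 and 185 FPKM, above every other library. Cerebellum libraries ranged from 84.7 to 105 FPKM around a median of 89.1, and brain libraries from 52.4 to 66.3 around 59.6. Ovary libraries had 61.0, 58.2 and 62.0 FPKM, within the brain range by total counts, but with TMM they ranged from 42.1 to 47.8 and lay below brain at 55.0 to 63.2. Colon libraries ranged from 32.2 to 51.1 around 35.5. Heart libraries had 27.9, 36.1 and 61.8 FPKM in females and 36.5 and 30.5 in males, and the high one was female heart replicate 3, which also had the lowest sum of cardiomyocyte markers in heart, 12549.9 FPKM, and the highest of leukocyte markers, 40.5 FPKM. With TMM the heart libraries lay closer together, at 46.1, 50.7 and 55.3 FPKM in females and 52.2 and 44.7 in males. The part of the markers in the *Atp1b3* level was not tested.

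By edgeR, 14 of 15 pairs differed for *Atp1b3*. Testis exceeded cerebellum by 1.42 ± 0.10 (log2, SE, adjusted p = 3.72e-12) and colon by 2.70 ± 0.10 (adjusted p = 1.07e-17), and it exceeded the mean of the others by 2.10 ± 0.08 (adjusted p = 1.53e-18). Cerebellum exceeded brain by 0.49 ± 0.09 (adjusted p = 0.000107). Heart minus ovary was 0.14 ± 0.11 and did not pass (adjusted p = 0.333). The order of this pair depended on scaling, since heart averaged 38.5 FPKM and ovary 60.4 by total counts, but 49.8 and 44.9 with TMM. Without the same 3 libraries, heart minus ovary was 0.06 (edgeR adjusted p = 0.771). With DESeq2 the pair was called (0.22, adjusted p = 0.0305). Brain exceeded heart by 0.25 ± 0.09 (adjusted p = 0.0207), a call lost with RLE factors (0.13, adjusted p = 0.244), with DESeq2 (0.13, adjusted p = 0.136), with no filter (0.21, adjusted p = 0.167), without male heart replicate 2 (0.21, adjusted p = 0.113) and without male gonad replicate 2 (0.04, adjusted p = 0.796). Ovary exceeded colon by 0.39 ± 0.11 (adjusted p = 0.00321), a call lost with RLE factors (log2 difference -0.20 for colon minus ovary, adjusted p = 0.126). Brain exceeded ovary by 0.40 ± 0.11 (adjusted p = 0.00284), with means of 59.2 and 44.9 FPKM with TMM but 58.9 and 60.4 by total counts, a call lost with no filter (0.31, adjusted p = 0.0657) and without male gonad replicate 2 (0.25, adjusted p = 0.0502).

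**Figure D3:**
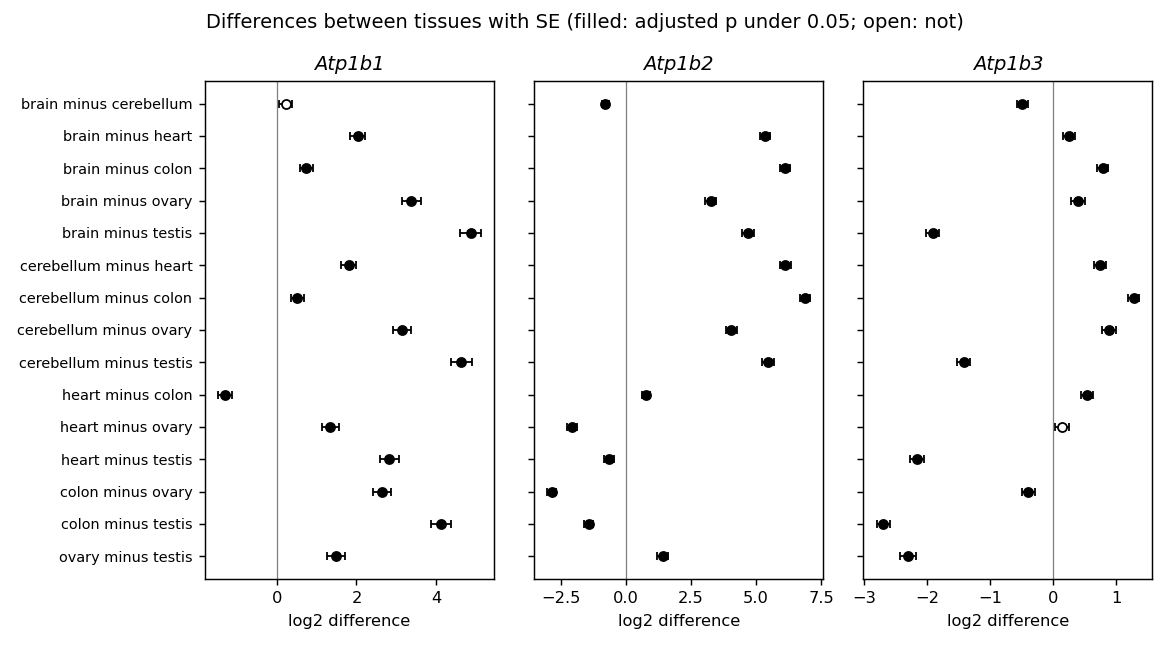
Log2 differences between each pair of the 6 tissues for the 3 beta genes, with SE as bars, from edgeR (filled points have an adjusted p under 0.05, open points do not, and each panel has its own axis). The open points are brain minus cerebellum for *Atp1b1* and heart minus ovary for *Atp1b3*, and no point is open for *Atp1b2*.

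The beta genes can be compared with each other per length. The share of each in the summed FPKM of the 3 genes was taken in every library, with the union of all exons of a locus as its length. In testis, *Atp1b3* made up 94.0%, 93.4% and 94.1% (mean 93.8% ± 0.366 SD, n = 3), against 3.19% for *Atp1b1* and 3.02% for *Atp1b2*. In ovary, *Atp1b3* made up 47.6% to 57.0% (mean 52.9% ± 4.78, n = 3), *Atp1b1* 24.6% ± 10.3 and *Atp1b2* 22.5% ± 5.93, with *Atp1b1* at 36.5% in female gonad replicate 1 and at 18.7% in both others. Colon was the tissue of *Atp1b1*, at 68.9% to 84.0% (mean 77.6% ± 5.27, n = 6), with 1.61% ± 0.437 for *Atp1b2*. In heart, *Atp1b1* (48.9% ± 7.76, n = 5) and *Atp1b3* (46.8% ± 7.51) were about even, with *Atp1b3* at 59.3% in female heart replicate 3 and at 40.8% to 47.2% in the others. Brain held 47.5% ± 6.21 of *Atp1b1*, 39.8% ± 5.97 of *Atp1b2* and 12.8% ± 0.734 of *Atp1b3* (n = 6). In female brain replicate 1 *Atp1b2* led, at 49.7% beside 37.4% for *Atp1b1*. In cerebellum *Atp1b2* led with 53.6% ± 4.59, before *Atp1b1* at 32.2% ± 3.27 and *Atp1b3* at 14.2% ± 1.38 (n = 6). The summed beta level itself ran from 80.6 ± 13.9 FPKM in heart through 115 ± 11.5 in ovary, 185 ± 20.7 in colon, 204 ± 8.91 in testis and 462 ± 35.1 in brain to 639 ± 41.7 in cerebellum. This order depended on scale and length. With TMM, heart (107 ± 8.22) was above ovary (85.1 ± 2.86). With the longest models that hold the whole coding region as lengths, colon (375 ± 51.8) was above testis (222 ± 9.62).

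**Figure D4:**
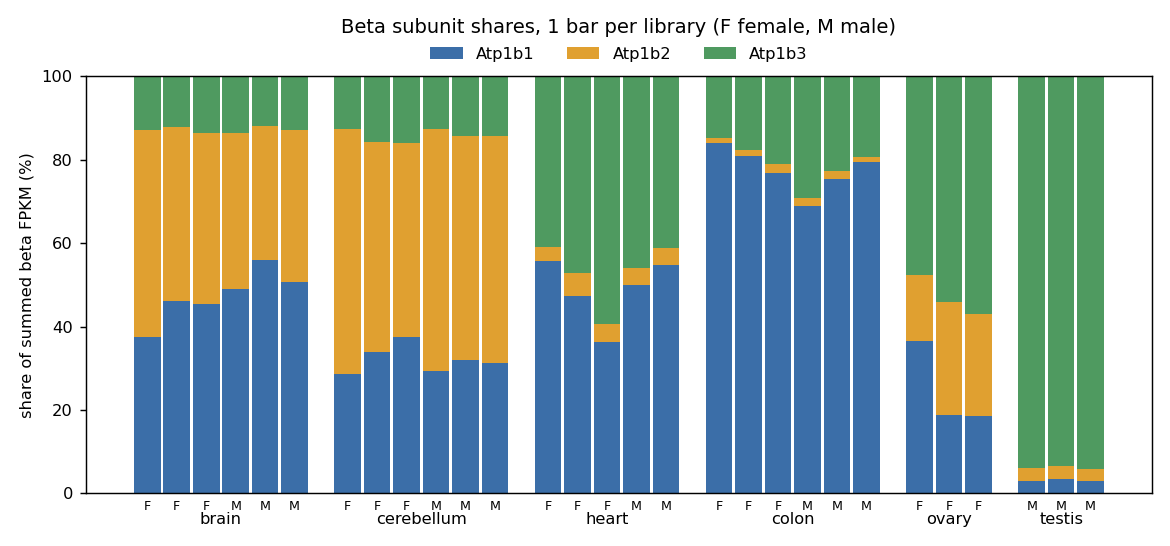
Share of *Atp1b1*, *Atp1b2* and *Atp1b3* in their summed FPKM, in percent, with 1 stacked bar per library, ordered by tissue and sex (F female, M male). *Atp1b3* fills over 93% of the testis bars, *Atp1b1* over 68% of the colon bars, and *Atp1b2* is visible as a broad band in brain, cerebellum and ovary.

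Shares were compared between tissues with two-sided exact permutation tests over libraries, adjusted by Benjamini-Hochberg over the 42 tests. For *Atp1b2*, all 14 testable pairs differed (adjusted exact p from 0.013 to 0.0405). For *Atp1b1*, 11 of 14 differed. The exceptions were brain against heart (difference -1.42 percentage points, exact p = 0.736), cerebellum against ovary (7.51 points, exact p = 0.143) and heart against ovary (24.2 points, exact p = 0.0714). For *Atp1b3*, 12 of 14 differed, the exceptions being brain against cerebellum (-1.48 points, exact p = 0.0563) and heart against ovary (-6.01 points, exact p = 0.286). Ovary against testis was not tested, since an exact permutation test of 3 libraries against 3 gives no p below 0.1. Its shares did not overlap for any of the 3 genes. Without female heart replicate 3, female gonad replicate 1 and female colon replicate 1, and also with male colon replicate 1 left out, 7 pairs were called for *Atp1b1*, 8 for *Atp1b2* and 7 for *Atp1b3*. With the first 3 left out, ovary has 2 libraries, heart 4 and colon 5. No test of ovary, or of heart against testis (smallest exact p 0.0571), can then pass, and this covers all calls lost but colon against testis, which for each gene stayed at the smallest exact p that 5 libraries against 3 allow, 0.0357 (adjusted p = 0.0557). With male colon replicate 1 out too, colon has 4 libraries, and colon against testis cannot pass either (smallest exact p 0.0571), which leaves no other lost call. Calls that involve a gonad rest on 3 libraries, and with 1 of them left out no such test can reach 0.05.

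Which beta gene had the highest mean share depended on the length used in cerebellum, and in ovary through 1 library. The exon union of *Atp1b1*, 5133 bases, includes the models that end at 164450587, while its longest model with the whole coding region has 2229 bases. With such lengths for the 3 genes, *Atp1b1* was at 46.5% in cerebellum, beside 44.2% for *Atp1b2*, at 67.2% in heart, beside 29.5% for *Atp1b3*, and at 39.5% in ovary, beside 39.2% for *Atp1b3*. *Atp1b1* then led in 4 of 6 cerebellum libraries and *Atp1b2* in 2. In ovary *Atp1b1* led only in female gonad replicate 1 (54.5%, beside 32.0% for *Atp1b3*), and *Atp1b3* led in the other 2 libraries (41.5% and 44.1%, beside 31.9% and 32.1% for *Atp1b1*). *Atp1b3* remained at 89.6% in testis and *Atp1b1* at 88.2% in colon. Each gene has the same length in all tissues, but its share also depends on the lengths of the other 2 genes. With such lengths *Atp1b3* no longer overlapped between brain (6.67% to 8.12%) and cerebellum (8.42% to 10.1%), a pair not called above. Its share in cerebellum then lay within the colon range (7.32% to 15.8%), a pair called above. The share tests given are those with the exon union.

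In testis, where the alpha 4 and beta 3 genes are both at their highest, the FPKM of *Atp1a4* was 0.942, 0.849 and 0.929 times that of *Atp1b3* in the 3 libraries. The side of 1 depended on the length, as the ratios were 1.10, 0.994 and 1.09 with the longest transcripts and 1.11, 1.00 and 1.10 with the longest models that hold the whole coding region. Elsewhere *Atp1b3* stood at 27.9 FPKM or more in every library while *Atp1a4* had at most 16 reads.

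No sex difference was called. Of the 12 tests (3 beta genes in brain, cerebellum, heart and colon), edgeR called 0, with 0 at an unadjusted p under 0.05, and DESeq2 called 0, with 1 at an unadjusted p under 0.05. Of all genes tested, 0.0368% were called in brain, 0.0301% in cerebellum, 0.0635% in heart and 0.324% in colon. *Atp1b2* in brain was 256, 203 and 189.9 FPKM in females and 167, 146 and 151 in males, without overlap. Male minus female was -0.41 ± 0.20 (log2, SE, edgeR adjusted p = 1). Astrocyte sums separated the sexes in the same direction, at 399.7, 315 and 319 FPKM in females and 295, 270.4 and 271 in males. Smooth muscle sums (24.9, 19.9 and 17.0 in females, 12.1, 13.1 and 12.2 in males) also separated the sexes this way. Endothelium sums (11.8, 13.1 and 8.86 in females, 7.01, 5.05 and 6.58 in males) did so too for the sexes. Neuronal sums separated the sexes the other way, at 898, 1016 and 1079 in females and 1186, 1299 and 1121 in males. Choroid plexus sums overlapped, at 992, 19.8 and 1561 in females and 443, 40.8 and 42.4 in males. Their part in the *Atp1b2* level was not tested. *Atp1b2* in cerebellum gave 0.09 ± 0.20. For *Atp1b1*, male minus female was between -0.34 ± 0.23 in colon and 0.25 ± 0.26 in heart, and for *Atp1b3* between -0.09 ± 0.12 in brain and 0.19 ± 0.12 in colon. In colon, *Atp1b3* had 32.2, 33.9 and 33.4 FPKM in females and 51.1, 39.2 and 37.1 in males (edgeR adjusted p = 0.69). With TMM the sexes overlapped, at 29.4, 34.2 and 32.4 in females and 41.8, 35.3 and 32.8 in males. The highest library, male colon replicate 1, is the one with the lowest epithelial and highest smooth muscle and leukocyte sums in colon, whose part was not tested. *Atp1a4* had 0 to 16 reads in each of these libraries and is not tested for sex. The test of whether sex differences vary between the 4 tissues called 0 of the 3 beta genes with edgeR (adjusted p from 0.896 to 0.925), with 0 at an unadjusted p under 0.05, beside 0.0167% of all genes. DESeq2 called 0 of the 3, with 0 at an unadjusted p under 0.05.

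Other genes of sodium transport were taken as lists. Of the other 4 Na,K-ATPase subunit genes, 3 passed the filter and all 3 were lower in testis than in the mean of the others (median log2 difference -2.25, against 0.10 over all genes), beside 26.7% of all genes called lower and 40.4% called higher. Of the 29911 genes behind these shares and the median over all genes, 3449 passed the filter through testis alone. *Atp1b4*, the X-linked beta-like gene of muscle, had at most 5 reads in any library. Of the 3 genes of the related H,K-ATPases, proton and potassium pumps, 2 passed the filter, and both were higher in testis than in the mean of the others (median 3.18), at levels below 1 FPKM in every library. Of these, *Atp4a* was at 0.454 ± 0.122 FPKM in testis and at 0.567 ± 0.301 in ovary (n = 3 each). The 7 FXYD genes encode small membrane proteins that bind the pump and tune it. Against the mean of the others, 2 of them were higher in testis and 2 lower (median -0.23). *Fxyd1*, known as phospholemman of heart muscle, was at 302 ± 62.9 FPKM in heart (n = 5), with brain minus heart at -3.08 ± 0.24 (adjusted p = 1.96e-11). Of the 4 *Nkain* genes, whose proteins bind beta 1, all were higher in brain than in heart and in colon, beside 35.1% and 38.7% of all genes, and 3 were lower in testis than in the mean of the others, *Nkain1* by -1.83 ± 0.25 (adjusted p = 3.92e-07).

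Of 11 genes of sodium entry and exchange that passed the filter, 1, *Slc9c1*, did so through testis alone. Of the other 10, 2 were higher and 6 lower in testis than in the mean of the others (median -1.18, against 0.10 over all genes), beside the same 40.4% and 26.7% of all genes. Unlike these 10, the values over all genes include the 3449 genes that passed the filter through testis alone. *Slc9c1*, the sodium and proton exchanger of sperm, was read mainly in testis. It was at 34.5 ± 3.59 FPKM in testis, with 3587 to 4372 reads, and at 0 to 8 reads in every other library. No test is given for it. The sodium and calcium exchanger *Slc8a2* was higher in testis than in that mean (2.60 ± 0.22, edgeR adjusted p = 8.27e-11) but lower than in brain (brain minus testis 1.75 ± 0.31, adjusted p = 1.55e-05), and cerebellum minus testis did not pass (-0.12 ± 0.28, adjusted p = 0.724), whereas *Slc8a1* (-3.35 ± 0.20, adjusted p = 4.42e-14) and *Slc8a3* (-3.91 ± 0.51, adjusted p = 2.07e-07) were lower. *Slc9a3*, the exchanger of the intestinal brush border, was higher in colon than in brain (brain minus colon -6.79 ± 0.31, adjusted p = 3.11e-16). None of the genes in these lists was called between the sexes by edgeR in any of the 4 tissues.

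Genes with the most similar pattern were sought by Pearson's r of log2 CPM over the 29 libraries, among 12612 genes with a tissue mean of at least 10 FPKM. These libraries share their tissues, so r mainly describes the order of tissues. Of the 5 genes most like *Atp1a4*, *Cypt12* (r = 0.99), *Scp2d1* (0.989) and *Ccdc185* (0.989) had 268, 167 and 82.5 FPKM in testis and at most 0.153 in every other tissue mean. For *Atp1b1* they included *Stx7* (0.971), *Atp8a1* (0.961), *Mfsd6* (0.954) and *Prkca* (0.949), each lowest in testis. For *Atp1b2* they included *Kif3c* (0.987), *Fn3krp* (0.982), *Tprkb* (0.981) and *AW047730* (0.981), each highest in cerebellum. For *Atp1b3* they included *Tchp* (0.976), *Ptpdc1* (0.966) and *Phc1* (0.963), each highest in testis and second in cerebellum. Over the 6 tissue means instead, 1 of the 5 genes was shared for each member.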

How the data were processed

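RNA-seq of 29 rRNA-depleted, strand-specific libraries was analysed from the table of raw counts per Iso-seq locus that the authors deposited, with the loci named by their deposited map. The submitters' processing notes name FastQC 0.11.8, MultiQC 0.9, HISAT2 2.0.5, featureCounts 1.6.3 and build mm10. The strand setting is not given in the sources used here. Groups came from the labels. Whether libraries of a group are separate animals is not stated, so p-values measure the spread between libraries.

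Genes were filtered with filterByExpr, scaled by TMM and fitted once over 10 groups with edgeR 4.0.16 (R 4.3.3, 19 residual degrees of freedom), each tissue being the mean of its sexes. A call is an adjusted p under 0.05. The planned tests of *Atp1a4* were run but are not given, since it passed the filter through testis alone. FPKM used total counts and the exon union of the deposited annotation. Shares used SciPy 1.17.1. DESeq2 1.42.0 and other settings were alternatives. Scripts were tested on simulated data. The genes and lists were chosen with earlier results of these data known. The genes named are the 4 subunit genes, listed pathway genes, markers and the 5 genes with the highest r, and some of them are not reported here.

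Replicate numbers were checked for pairing. Over 126 pairs of libraries with the same number, the correlation of deviations from group means ran from -0.259 to 0.155 (median -0.00197), with 5 above 0.1, so the numbers were not taken to pair libraries. The sample descriptions also hold library codes, whose meaning is not stated. Over 50 pairs from different groups whose codes began alike, the median was 0.00809, with 4 above 0.1. The codes were not taken to pair libraries either.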

Additional observations from a re-analysis of the deposited data

How the results depend on the processing

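Of 417 values of the main results under alternatives, 390 stayed within their limits, 27 moved and 0 reversed. Most of these values were repeats with 1 library left out, and the limits were wide. A change from 14 to 13 pairs called, for example, counted as within them. Single comparisons of 2 tissues were tallied apart, under the alternatives other than leaving out 1 library. There 307 kept their call, 7 lost it and 1 gained it. The mean of *Atp1a4* in testis was 201.4 FPKM with TMM library sizes, 212 FPKM with the longest transcript as length and 213 FPKM with the longest model holding the whole coding region. With those lengths *Atp1b1* in brain was 342 and 502 FPKM and *Atp1b2* in cerebellum 419 and 450.1 FPKM. *Atp1b3* in testis was 222 FPKM with TMM library sizes. Over the 6 tissue means, 1 of the 5 most similar genes was shared for each member. Leaving out female heart replicate 3, female gonad replicate 1 and female colon replicate 1 together, chosen after seeing the data, left 7 share calls for *Atp1b1*, 8 for *Atp1b2* and 7 for *Atp1b3*, the same numbers as with male colon replicate 1 left out too. Ovary then has 2 libraries, heart 4 and colon 5 or 4, so fewer pairs can pass in an exact test, and colon against testis can pass only with 5. Without 1 library, the range was 7 to 11, 9 to 14 and 8 to 13 share calls for *Atp1b1*, *Atp1b2* and *Atp1b3*. The replicate numbers were not taken to pair libraries. With the replicate number as a block, 14, 15 and 14 pairs were called for *Atp1b1*, *Atp1b2* and *Atp1b3*, and testis minus the others was -3.58, -1.89 and 2.10 (log2). Low counts limit *Atp1a4* outside testis, and 2 or 3 libraries a group limit the tests of sex. Where a call changed, the cause was not tested.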
